A study of Mus musculus with 24 samples.

Results

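Cathepsins are the proteases of the lysosome, and cystatins are the small proteins that block the cysteine-type cathepsins. RNA of 8 cathepsin genes (Ctsa, Ctsb, Ctsc, Ctsd, Ctsh, Ctsl, Ctss and Ctsz) and 2 cystatin genes (Cst3 and Cstb) was examined in microglia, the resident macrophages of the brain. The 10 genes were a set list, matched by symbol among 35519 genes, and all 10 passed the filter on low counts that left 9803 genes to be tested. The 24 libraries each hold 1000 cells that were sorted as Ly6C-, CD11b+ and Fcrls+ from whole brain of C57BL/6 mice and made into libraries by Smart-Seq2, a full-length method with neither strand information nor molecular identifiers. The mice were female or male, and were wild type (WT) or lacked neuroligin-4, which helps to hold synapses together (NL4-/-). From every combination of sex and genotype came 2 libraries labelled control and 4 labelled phagocytosis, called biological replicates in the series' design text; one further phagocytosis replicate per group named there was not analysed here. The labels leave unsaid what the cells of the phagocytosis groups had engulfed and whether this took place in the animal or in culture, and no age is used here. The labels name no cell type to which the loss of the gene is limited, and its RNA was not analysed here, so the genotype labels were not checked against the reads.

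Lysosomal cathepsins are made as inactive precursors, tagged with mannose 6-phosphate, carried to the lysosome by sorting receptors and cut into active form in its acid lumen. Ctsb, Ctsc, Ctsh, Ctsl, Ctss and Ctsz encode cysteine proteases, Ctsd encodes an aspartic protease and Ctsa a serine carboxypeptidase that also stabilises other lysosomal enzymes. Cystatin C, the product of Cst3, is secreted and blocks cysteine cathepsins outside the cell, whereas cystatin B, the product of Cstb, stays inside the cell and blocks enzyme that leaks out of lysosomes. In phagocytes these enzymes digest the cargo of phagosomes after fusion with lysosomes.

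Library totals ran from 421107 to 1013797 expected reads. Transcripts of the mouse major satellite repeat took 4.07 to 23.3% of the reads of control libraries and 1.52 to 16.3% of those of phagocytosis libraries, and 3 controls were over 20% (male WT control 2, and control 1 of both female and male NL4-/-). The 10 microglia markers, Fcrls among them, summed to 32529 to 46413 CPM (counts scaled to a common library total) in controls and 18469 to 44231 CPM in phagocytosis libraries, and 0 of 10 had a higher mean in the phagocytosis libraries. Markers of border-associated macrophages summed to 868 to 1735 CPM in controls and 1417 to 2448 CPM in phagocytosis libraries (12 of 12 higher). Stab1 made up most of these sums, with means of 996 and 1466 CPM. Among the rarer markers, mean CPM went from 0.73 to 12.9 for Pf4 and from 0.25 to 4.73 for Lyve1. Cbr2 went from 1.40 to 11.9 and Ms4a7 from 1.33 to 11.2 CPM. Monocyte markers summed to 17.7 to 91.4 and 27.4 to 200.1 CPM (10 of 10 higher), neuron markers to 4.36 to 13.4 and 12.6 to 107 CPM (9 of 10 higher, mostly through Uchl1), and oligodendrocyte markers to 121 to 184 and 169 to 371 CPM (7 of 10 higher). Neutrophil markers summed to 418 to 656 and 272 to 607 CPM (4 of 10 higher). Csf3r made up most of these sums (means 533 and 407 CPM), while S100a8 (3.58 and 5.17) and S100a9 (3.60 and 10.7) were higher in phagocytosis libraries. Dendritic cell markers summed to 41.4 to 71.5 and 31.3 to 203 CPM (6 of 8 higher). Astrocyte markers summed to 57.2 to 141 and 73.0 to 143 CPM (9 of 10 higher). Slc1a3 made up most of the astrocyte sums (means 89.5 and 60.9 CPM), while Gfap went from 1.72 to 14.1 CPM. Endothelial markers summed to 19.8 to 36.3 and 17.7 to 68.4 CPM (4 of 10 higher). The endothelial marker Cldn5 was at 0 reads in all 24 libraries, and the neutrophil marker Ly6g, the dendritic cell marker Clec9a and the oligodendrocyte marker Mog had at most 3 reads in all. The part of these sums in the differences below was not tested. In bulk RNA of sorted cells, fewer cells of a type and less RNA per cell cannot be told apart.

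Per length, Cst3 was the most abundant of the 10 transcripts and Cstb the least. Levels of different genes are compared as TPM, which divide reads by transcript length. TPM of a gene are summed over all its annotated transcripts, coding or not. In the 8 control libraries Cst3 stood at 25703 TPM, followed by Ctsd at 4071, Ctss at 2923, Ctsz at 1583, Ctsb at 1014, Ctsl at 928, Ctsa at 558, Ctsc at 478, Ctsh at 363 and Cstb at 61.2 TPM. Neighbours kept that order in 8 of 8 control libraries except Ctsb over Ctsl (6 of 8), Ctsa over Ctsc (7 of 8) and Ctsc over Ctsh (7 of 8), so the places of these neighbours were not separated by the spread between libraries. In the 16 phagocytosis libraries Cst3, Ctsd and Ctss again led at 27056, 4479 and 3130 TPM. Ctsb came next at 2600 TPM and was above Ctsz (2486 TPM) in 9 of 16 libraries, where Ctsz had been above Ctsb in 8 of 8 controls. Cstb reached 364 TPM and was below Ctsh (394 TPM) in 8 of 16 libraries, where it had been below it in 8 of 8 controls. The order of the means was the same with the satellite transcripts left out. TPM of a single gene are not compared between the states, because the satellite share enters every TPM.

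The first comparison set phagocytosis against control with each sex and genotype weighted equally, and asks what differs between the states whatever the sex and genotype. RNA of the inhibitor Cstb was 5.02-fold and RNA of the protease Ctsb 2.02-fold higher in phagocytosis libraries, and Ctsz rose by a smaller amount. By edgeR's quasi-likelihood test with Benjamini-Hochberg adjustment over the 9803 genes, 3 of the 10 genes rose and 0 fell. Of all genes tested 13.6% changed, 8.41% upward and 5.18% downward. The median log2 fold change of the 10 genes was 0.13, against -0.01 over all genes tested. Levels of a single gene across libraries are given from here on as CPM after TMM normalisation, edgeR's correction for composition.

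Cstb (positions in build GRCm38: chromosome 10, 78425669 to 78427622, plus strand, 3 exons) had 26.7 CPM in the lowest, 34.1 in the median and 51.1 in the highest control library. In phagocytosis libraries these values were 95.1, 175 and 314 CPM, so the lowest of the 16 phagocytosis libraries lay above the highest of the 8 controls. Of all genes tested 0.867% had states that did not overlap, 0.796% with phagocytosis higher and 0.0714% with it lower, and 2 of the 10 genes did (Cstb and Ctsb). The values rest on 11 to 44 reads in a control library and 74 to 234 in a phagocytosis library. The means were 36.8 ± 9.81 (SD, n = 8) and 187 ± 69.8 CPM (SD, n = 16), a log2 fold change of 2.33 ± 0.237 (SE, edgeR adjusted p = 3.88e-07), which put Cstb at rank 26 of 9803 genes by p. Within the phagocytosis libraries Cstb spread widely, with female NL4-/- replicates 3 and 4 lowest (95.1 and 97.2 CPM) and male WT replicate 2 highest.

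Ctsb (chromosome 14, 63122462 to 63145923, plus strand, 10 exons in its leading transcript) had 2719.6 CPM in the lowest, 3447 in the median and 3965 in the highest control library. In phagocytosis libraries it had 5098, 6732 and 8263 CPM, and again the states did not overlap. The means were 3359.5 ± 486 (SD, n = 8) and 6743 ± 902 CPM (SD, n = 16), with a log2 fold change of 1.01 ± 0.103 (SE, edgeR adjusted p = 7.99e-08) and rank 12 of 9803 by p. Ctsb, which acts both as an endopeptidase and as a carboxydipeptidase, thus had a smaller fold than Cstb but less spread between libraries. Ctsb and Cstb passed under all 36 alternative settings, with log2 fold changes of 0.99 to 1.08 and 2.03 to 2.61.

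Ctsz, a carboxypeptidase (chromosome 2, 174427493 to 174439039, minus strand, 6 exons), had 2533 CPM in the lowest, 3181 in the median and 3647 in the highest control library. In phagocytosis libraries the values were 3154, 3999 and 5207 CPM, so the states overlapped, and 12 of 16 phagocytosis libraries lay above every control. Its log2 fold change was 0.39 ± 0.105 (SE, edgeR adjusted p = 0.0123). Without the 3 control libraries over 20% satellite, Ctsz was at 0.28 (edgeR adjusted p = 0.261) and did not pass, where 410 of 10666 genes passed (3.84%, 3.09% upward and 0.75% downward). Ctsb and Cstb passed without these 3 libraries too, at 1.00 and 2.16. The count over all genes also moved from 1332 to 781 without female WT control 2, with the same 3 of the 10 genes called.

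**Figure D1:**
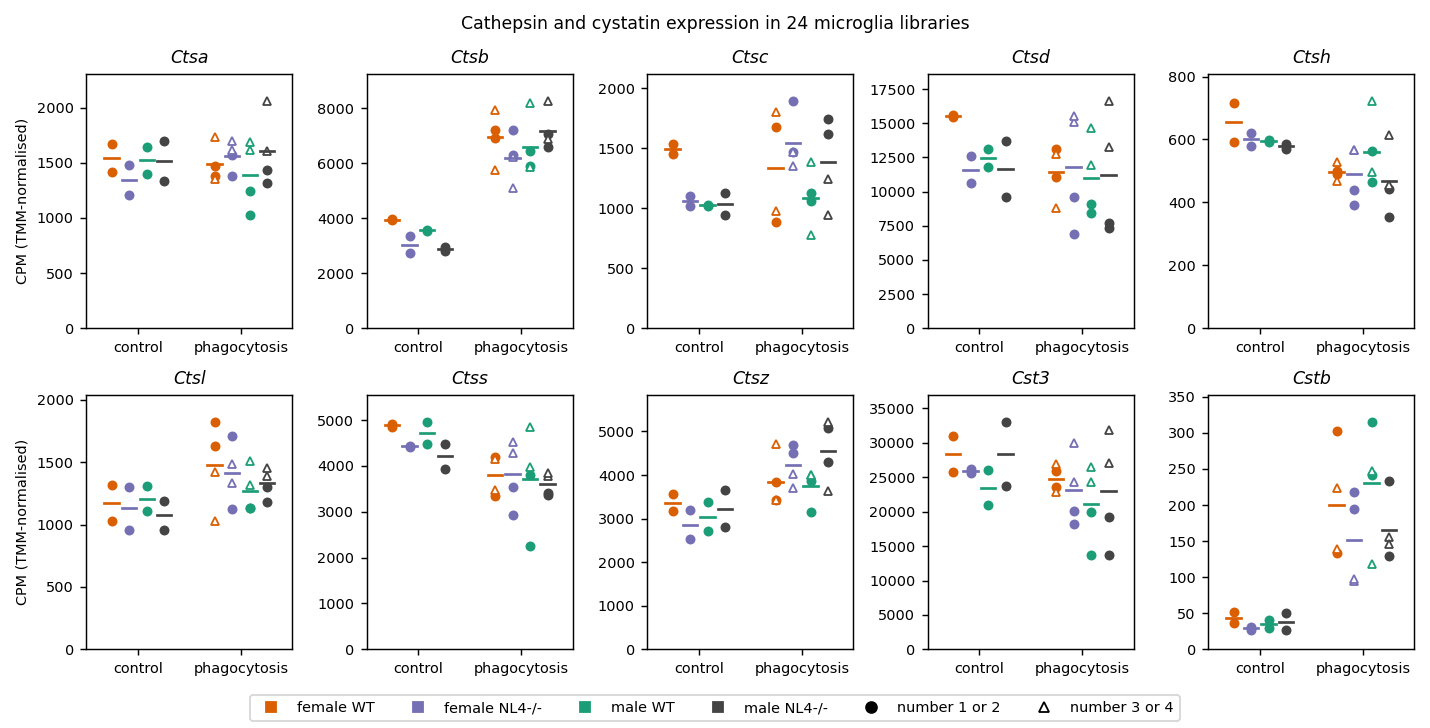
TMM-normalised CPM (vertical axes, each from 0) of the 10 genes in the 24 libraries, by state; points are libraries, colours are sex and genotype, filled circles are numbers 1 and 2, open triangles numbers 3 and 4, and bars are group means. The states are apart for Ctsb (controls at 2719.6 to 3965 CPM, phagocytosis at 5098 to 8263) and Cstb (26.7 to 51.1 and 95.1 to 314) and overlap for the other 8 genes, where 0.867% of all genes have states apart.

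The other 7 genes did not pass. Ctsl, a strong endopeptidase, had 1146 ± 156 CPM (SD, n = 8) in controls and 1372 ± 225 in phagocytosis libraries (log2 fold change 0.26, 95% interval 0.03 to 0.49, edgeR adjusted p = 0.134). Ctsc, which activates serine proteases of granules, had 1152 and 1338 CPM (0.22, -0.05 to 0.50, edgeR adjusted p = 0.301). Ctsa had 1480.2 and 1512 CPM (0.03, -0.19 to 0.25, edgeR adjusted p = 0.906). Ctss, which trims the invariant chain for antigen presentation and keeps its activity at neutral pH, had 4556 and 3733 CPM (-0.29, -0.52 to -0.06, edgeR adjusted p = 0.0926). Ctsh, an aminopeptidase, had 607 and 504 CPM (-0.27, -0.49 to -0.05, edgeR adjusted p = 0.0976). Ctsd had 12815 and 11367 CPM (-0.16, -0.49 to 0.16, edgeR adjusted p = 0.555), and Cst3 had 26541 and 23014 CPM (-0.20, -0.48 to 0.07, edgeR adjusted p = 0.358). All 7 overlapped between the states. With a minimum count of 30, Ctsh (-0.30, edgeR adjusted p = 0.0432) and Ctss (-0.32, edgeR adjusted p = 0.0405) passed as well, where 23% of 5962 genes passed (12.3% upward, 10.6% downward). Ctss also passed without male WT phagocytosis replicate 4 (-0.31, edgeR adjusted p = 0.0440).

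For Ctsd, Cst3, Ctss, Ctsh, Ctsa, Cstb and Ctsc the value depended on which phagocytosis libraries entered. The labels number the phagocytosis libraries 1 to 4 in each group and do not say what the numbers stand for. Ctsd in libraries 1 and 2 was 6906 and 9577 CPM in female NL4-/-, 9082 and 8402 in male WT, and 7317 and 7682 in male NL4-/-. In libraries 3 and 4 of the same groups it was 15107 and 15532, 11926 and 14685, and 13277 and 16616 CPM. The pairs did not overlap in these 3 groups, whereas in female WT they did (13123 and 11065 against 8805 and 12776 CPM). With 2 libraries against 2 such separation was common: numbers 1 and 2 lay wholly below 3 and 4 for 23.9%, 17.9% and 18.2% of all genes in the 3 groups, in the same order. Cst3 was likewise lower in numbers 1 and 2 in the same 3 groups, but not in female WT (means of 24740.4 against 24868 CPM). Its means in the 3 groups were 19158 against 27161, 16851 against 25398 and 16448 against 29486 CPM. Ctss and Ctsa also had numbers 1 and 2 wholly below 3 and 4 in these 3 groups, and Ctsh in female and male NL4-/-. Between the states Ctsa had a log2 fold change of -0.10 with numbers 1 and 2 alone. With numbers 3 and 4 alone it had 0.18, and it passed with neither.

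With numbers 1 and 2 as the only phagocytosis libraries, 7 of 10 genes passed, the same 3 upward and Ctsd, Cst3, Ctsh and Ctss downward, where 18.8% of 9440 genes tested passed, 11.1% upward and 7.65% downward. The log2 fold changes were -0.46 for Ctsd (edgeR adjusted p = 0.00580), -0.44 for Cst3 (0.0117), -0.38 for Ctsh (0.0203) and -0.40 for Ctss (0.0200). With numbers 3 and 4 alone, 3 of 10 passed (Ctsb, Cstb and Ctsz), where 8.33% of 9383 genes passed, 5.28% upward and 3.06% downward, and Ctsd and Cst3 stood at 0.09 and 0.02. The difference between the numbered sets itself was not tested. The summed microglia markers moved with them: their median was 41528 CPM of the library total in controls, 23859.7 in phagocytosis numbers 1 and 2, and 35338 in numbers 3 and 4. The median satellite share was 7.63% in numbers 1 and 2 and 5.17% in numbers 3 and 4. The part of either in the values of Ctsd, Cst3, Ctsh, Ctss, Ctsa, Cstb and Ctsc was not tested. Pooled over the groups, Ctsb had 6706 ± 468 CPM (SD, n = 8) in numbers 1 and 2 and 6780.3 ± 1234 in numbers 3 and 4. Within female NL4-/- its numbers 1 and 2 lay wholly above 3 and 4 (means 6751 and 5662 CPM), as for 22.5% of all genes. They overlapped in female WT (7066 and 6843 CPM), male WT (6184 and 7046 CPM) and male NL4-/- (6824 and 7571 CPM). Cstb was at 221 ± 68.4 CPM (SD, n = 8) in numbers 1 and 2 and 153 ± 55.8 in numbers 3 and 4. Its log2 fold change was 2.61 with numbers 1 and 2 alone and 2.03 with numbers 3 and 4 alone. Ctsc had 0.35 and 0.12 in the same order and passed with neither.

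**Figure D2:**
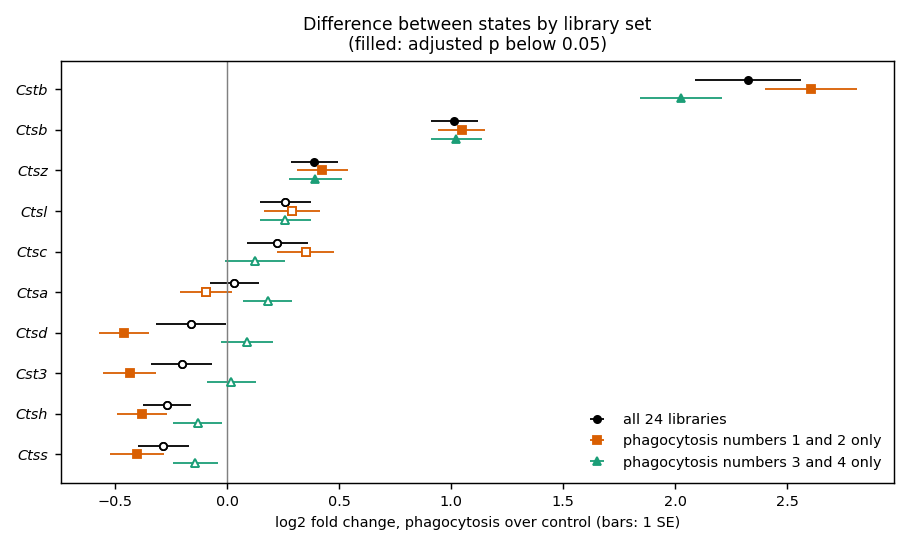
Log2 fold change of phagocytosis over control (horizontal axis, bars of 1 SE) for each gene with all 24 libraries, with phagocytosis numbers 1 and 2 alone and with numbers 3 and 4 alone; filled symbols have an edgeR adjusted p below 0.05. Ctsb and Cstb are filled and to the right in every set, while Ctsd runs from -0.46 with numbers 1 and 2 to 0.09 with numbers 3 and 4.

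Within single groups, 4 phagocytosis libraries were compared with 2 controls, so that the 4 comparisons shared no library but shared 1 estimate of the spread. Cstb passed in 4 of 4 groups and Ctsb in 3 of 4. In female WT, where 0.581% of all genes passed (0.541% upward, 0.0408% downward), Cstb rose from 51.1 and 36.8 CPM in the controls to 133, 302, 224 and 139.5 CPM (2.16 on the log2 scale, edgeR adjusted p = 0.0192). Ctsb there went from 3965 and 3943 to 7201, 6931, 5741 and 7944 CPM (0.81, edgeR adjusted p = 0.0602) and missed the threshold, although the libraries did not overlap. In female NL4-/-, where 0.459% of genes passed (0.408% upward, 0.051% downward), Cstb rose from 27.0 and 31.4 to 195, 218, 95.1 and 97.2 CPM (2.33, edgeR adjusted p = 0.0215). Ctsb rose from 2719.6 and 3344 to 7201, 6300.4, 5098 and 6225 CPM (1.03, edgeR adjusted p = 0.012).

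In male WT, where 0.326% of genes passed (0.316% upward, 0.0102% downward), Cstb rose from 40.6 and 30.3 to 242, 314, 247 and 119 CPM (2.71, edgeR adjusted p = 0.00713). Ctsb rose from 3549.96 and 3579 to 6445, 5922, 8217 and 5875 CPM (0.89, edgeR adjusted p = 0.0474). In male NL4-/-, where 0.602% of genes passed (0.5% upward, 0.102% downward), Cstb rose from 26.7 and 50.3 to 234, 129, 155 and 146 CPM (2.10, edgeR adjusted p = 0.0447), and Ctsb from 2949 and 2827 to 6585, 7063, 6879 and 8263 CPM (1.32, edgeR adjusted p = 0.00203). In each of the 4 groups the phagocytosis libraries lay wholly above the controls for both genes, as they did for 11.5%, 12.1%, 9.09% and 11.5% of all genes in female WT, female NL4-/-, male WT and male NL4-/-. Other genes of the 10 that did not overlap were Ctsd, Ctsh and Ctss (lower) in female WT, Ctsc and Ctsz (higher) and Ctsh (lower) in female NL4-/-, and Ctss (lower) in male NL4-/-, where 12.6%, 11.3% and 11.5% of all genes lay wholly below the controls; none of these passed. Ctsz had log2 fold changes of 0.19, 0.56, 0.30 and 0.50 in female WT, female NL4-/-, male WT and male NL4-/- and passed in 0 of them. Without the control libraries over 20% satellite, which left 1 control in each of female NL4-/-, male WT and male NL4-/-, neither gene passed in those groups, at log2 fold changes of 0.90 to 1.36 for Ctsb and 1.72 to 2.52 for Cstb. Leaving out either control of a group ended every call among the 10 genes in that group in 4 of 4 groups, and in female WT so did leaving out its phagocytosis replicate 2 or 3. In these fits the lone control is assumed to vary like the other groups.

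**Figure D3:**
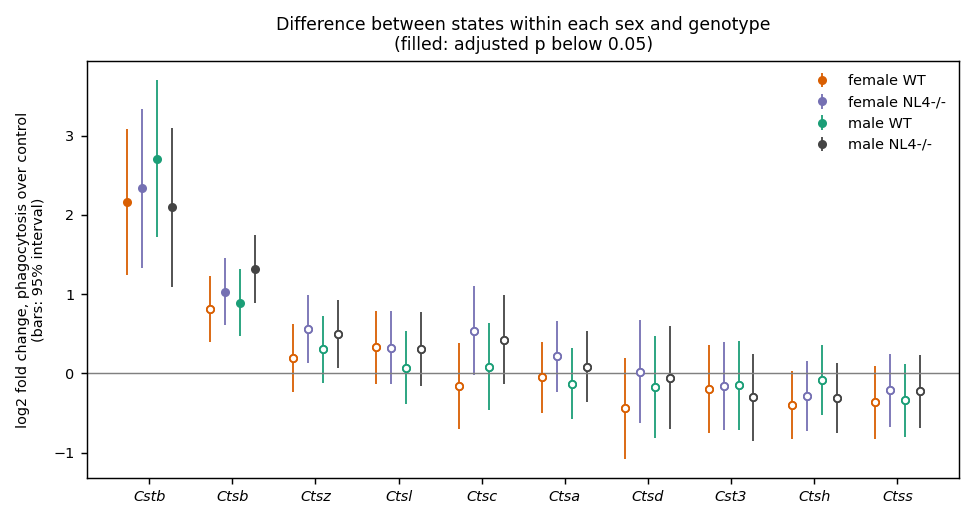
Log2 fold change of phagocytosis over control (vertical axis, bars of the 95% interval) for each gene within each sex and genotype, 4 against 2 libraries; filled points have an edgeR adjusted p below 0.05. Cstb lies between 2.10 and 2.71 and Ctsb between 0.81 and 1.32, and the other 8 genes have open points in every group.

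Genotype was compared within each state, which asks whether the loss of neuroligin-4 goes with different protease RNA. In controls 0 of 10 genes passed, as did 0 of 9803 genes (0%); 331 genes had an unadjusted p under 0.05, and DESeq2 called 3. Ctsb was lower in each NL4-/- control library than in each WT one: 2719.6, 3344, 2949 and 2827 CPM against 3965, 3943, 3549.96 and 3579 CPM, a separation that 3.64% of all genes showed (2.08% lower in NL4-/-). The log2 fold change was -0.34 ± 0.161 (SE, unadjusted p = 0.042, edgeR adjusted p = 1.00), so the difference did not pass. In phagocytosis libraries Ctsb was at 6702 CPM in NL4-/- and 6785 in WT (-0.02, 95% interval -0.25 to 0.21). There 0 of 10 genes passed and 0 of 9803 (0%), with 500 at an unadjusted p under 0.05 and 1 called by DESeq2. Cstb had 159 ± 52.5 CPM (SD, n = 8) in NL4-/- and 215 ± 76.5 in WT phagocytosis libraries (-0.44, 95% interval -0.90 to 0.02, edgeR adjusted p = 0.944), with overlapping libraries. Ctsc had 1466 and 1210.3 CPM (0.28, -0.03 to 0.60, edgeR adjusted p = 0.944).

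Within each sex, between the genotypes 0 of 10 genes passed in female or male controls or in female or male phagocytosis libraries (0% of genes in each; 210, 328, 510 and 465 genes had an unadjusted p under 0.05, and DESeq2 called 4, 5, 3 and 0). The largest of these differences among the 10 genes was that of Cstb in female controls, 29.2 against 44.0 CPM (-0.58, 95% interval -1.71 to 0.56). Between the sexes 0 of 10 genes passed in either state, where 3 genes passed in controls (0.0306%, with 0.0204% higher and 0.0102% lower in males) and 4 in phagocytosis libraries (0.0408%, with 0.0306% higher and 0.0102% lower). The interactions ask whether the difference between the states itself differed by genotype, by sex or by both, and 0 of 10 genes passed in any (0% of genes, with 276, 190 and 213 genes at an unadjusted p under 0.05). DESeq2 called 1 gene in each of these 3 interactions and 0 of the 10. The interaction of genotype and sex within phagocytosis libraries also gave 0 genes (0%), with 467 at an unadjusted p under 0.05 and 2 by DESeq2. The state by genotype term was 0.32 for Ctsb (95% interval -0.08 to 0.73), -0.22 for Cstb (-1.18 to 0.73) and 0.52 for Ctsc (-0.03 to 1.07, unadjusted p = 0.0634), where positive values mean a larger rise in NL4-/-. The interval for Cstb spans more than 1 unit to the lower side, so a difference in response of that size is within its error.

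The make-up of the cathepsin RNA pool was read as shares of the summed TPM of the 8 cathepsins, which are ratios within a library. These sums take in every annotated transcript, coding or not, among them Ctsb-202, which keeps an intron. Ctsb made up 8.45% ± 0.98 (SD, n = 8) of the pool in controls and 16.6% ± 2.40 (SD, n = 16) in phagocytosis libraries, without overlap. Ctsd went from 34.1% to 27.8% and Ctss from 24.9% to 19.7%, while Ctsz went from 13.2% to 16.0%. For each Ctsd transcript there were 0.248 ± 0.0329 Ctsb transcripts in controls and 0.628 ± 0.191 in phagocytosis libraries, again without overlap. The ratio of Ctsb to Ctss went from 0.341 to 0.857, also without overlap. The 10 genes together took 5.27% ± 0.826 of the reads of control and 5.38% ± 0.896 of those of phagocytosis libraries. Both values are shares of all reads, satellite reads included. The satellite share differed between libraries and states, so these 2 values are not compared. The shares and ratios of this paragraph contain the genes tested above and are given as a description.

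The 2 inhibitors were also set against their targets, as a description. Cst3 stood at 3.56 ± 0.507 transcripts for each transcript of the 6 cysteine cathepsins in controls and 2.51 ± 0.458 in phagocytosis libraries, with overlap. Cstb stood at 0.00813 ± 0.00161 and 0.0359 ± 0.0154, without overlap. For every 100 Cst3 transcripts there were 0.230 Cstb transcripts in controls and 1.5 in phagocytosis libraries, so the secreted inhibitor remained the far more abundant RNA in both states. In numbers 1 and 2 the ratio of Cst3 to the cysteine cathepsins was 2.21 ± 0.406 and in numbers 3 and 4 it was 2.82 ± 0.268, while the ratio of Cstb to them was 0.0437 and 0.0281.

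**Figure D4:**
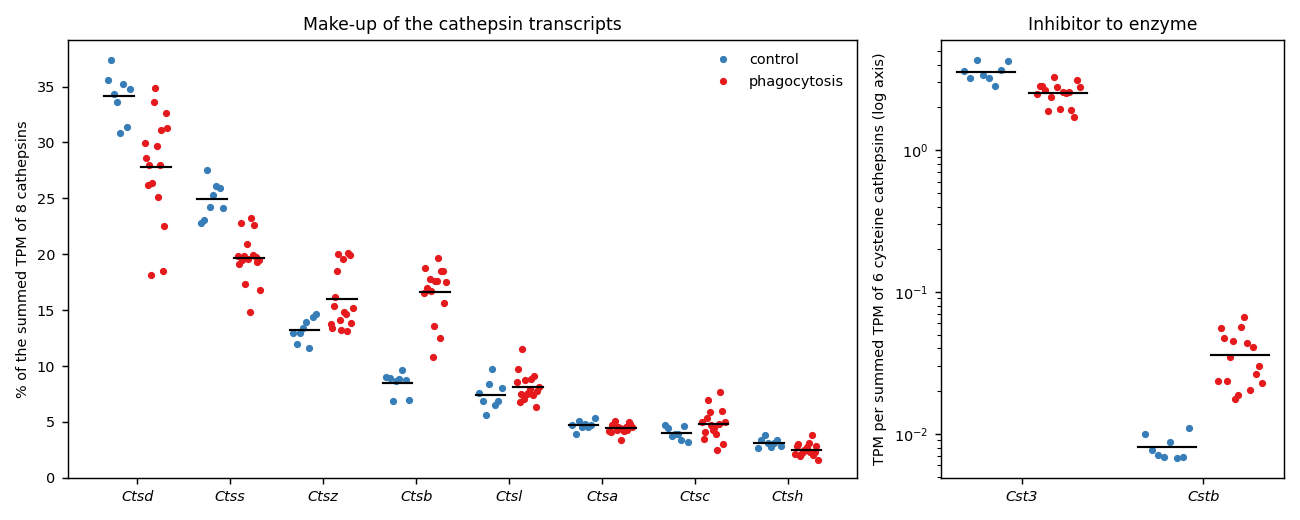
Left, each cathepsin as a percent of the summed TPM of the 8 cathepsins; right, TPM of the inhibitors Cst3 and Cstb per summed TPM of the 6 cysteine cathepsins (log axis); points are libraries and bars are means of the state. Ctsb shifts from 8.45% to 16.6% and the ratio of Cstb from 0.00813 to 0.0359, both without overlap between the states.

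The split of reads over annotated transcripts overlapped between the states for Ctsa, Ctsb, Ctsc, Ctsd, Ctsh, Ctsl and Ctss. Cstb and Ctsz have 1 transcript each in the files. Of the Ctsb reads 81.6% fell on the coding transcript Ctsb-201 in controls and 80.3% in phagocytosis libraries. Ctsb-202, which keeps an intron, took 18.1% and 19.4%. It has 801 bases against 4743 for Ctsb-201, so it weighs more in the summed TPM of Ctsb than in its reads. The TPM levels, shares and ratios of Ctsb given above include it. Ctsd-201, the minor coding transcript of Ctsd, took 6.81% and 9.60%, and Ctsh-201 took 43.1% and 46.8% of the Ctsh reads. Ctsh-202, annotated as a target of nonsense-mediated decay, took 39.0% and 35.7% of them. The overlap held for every transcript with at least 5% of a gene's reads. Because strand is not recorded, reads in overlaps with a neighbour cannot be assigned by strand: Ctsb shares up to 774 exonic bases with Fdft1 on the opposite strand. Fdft1 was assigned 275 reads in all 24 libraries, fewer than Ctsb was in any 1 of them. Both counts rest on the same assignment without strand, and the part of the overlap in the Ctsb values was not tested. Ctsl shares up to 977 exonic bases with an antisense gene and 395 with a pseudogene, and Ctsa shares 324 with Neurl2 and 311 with Pltp, so their values carry this uncertainty.

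Across the 24 libraries the 10 genes formed different patterns, described here by Pearson correlations of log2 CPM without a test, since the libraries share the state difference, the protocol and the range of depth. Cstb and Ctsb had r = 0.87 over all libraries but 0.09 once the 8 group means were subtracted, so within groups a library with more Cstb did not tend to have more Ctsb. Ctsd and Cst3 had r = 0.77, and 0.79 within groups. The genes most like Cstb were Fth1, the heavy chain of ferritin (r = 0.98), Lilr4b (0.97) and Anxa5 (0.96), and Fth1 remained closest within groups (0.87). Those most like Ctsb were Adam8 (0.96), Capg (0.95) and Lilr4b (0.94). Ctsd was most like the microglial genes Tmem119 (r = 0.87, within groups 0.93) and P2ry12 (0.83). Ctss was most like Lpcat2 (0.94), Trf (0.92) and Nfam1 (0.91). Ctsh was most like St6gal1 (0.89), Rgs2 (0.87) and Rasgrp3 (0.87). Cst3 was most like Twf2 (0.87), Laptm5 (0.86) and Cd37 (0.86), and Ctsa most like Atp6ap1, an accessory protein of the proton pump (0.87), the complement gene C1qb (0.84) and Ergic3 (0.82). Ctsz was most like Slc35f6 (0.84), Eef2 (0.84) and Actb (0.83), Ctsc most like Rpl12 (0.82), Jmjd4 (0.81) and Shmt2 (0.80), and Ctsl most like Pld3 (0.79), Atp5a1 (0.79) and Adrm1 (0.75).

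The 250 bases before the start were searched, in the RefSeq promoter sequences of build GRCm38.p6, in the 8 entries of the 7 genes that had one (Cst3, Ctsa, Ctsc, Ctsd, Ctsl, Ctss and Ctsz). The motifs, on both strands, were CACGTG, the core bound by basic helix-loop-helix factors, TCACGTGA, the longer form that contains it and is known from lysosomal genes bound by TFEB, GAGGAAG, an ETS-type motif of myeloid genes, and TGACTCA, bound by AP-1. Of 32851 promoters of the same length 6.02% held CACGTG, 0.785% TCACGTGA, 10.6% GAGGAAG and 4.46% TGACTCA. TCACGTGA lay in Ctsd and in the second start of Ctsa, CACGTG outside it in Ctsd and Ctsl, and GAGGAAG in Ctsc at 2 places. Ctsz, the gene with an entry that rose, had none of the 4, nor had Cst3, Ctss and the first start of Ctsa, which says only that these letters are not in these windows. The matches are shown in 30 bases of the gene's strand, 5′ to 3′, with the motif in capitals (for Ctsc the motif on the other strand), and Ctsz is shown whole because its RNA rose. Starts are those of the RefSeq entries and need not be the gene's outermost start: in GENCODE vM21 all 30 bases of the first Ctsd stretch and of the Ctsa stretch and 15 of the Ctsl stretch lie in annotated exons, and 0 of the others. The stretches of Ctsa and Ctsc are on the plus strand and those of Ctsd, Ctsl and Ctsz on the minus strand.
Ctsd, 99 bases before the start, chr7:142387908-142387937: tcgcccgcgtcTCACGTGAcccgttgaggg
Ctsd, 245 bases before the start, chr7:142388048-142388077: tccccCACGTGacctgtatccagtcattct
Ctsa, 13 bases before the start, chr2:164833743-164833772: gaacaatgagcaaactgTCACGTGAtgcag
Ctsl, 236 bases before the start, chr13:64370739-64370768: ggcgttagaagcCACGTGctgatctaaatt
Ctsc, 197 bases before the start, chr7:88277877-88277906: ccactttccttCTTCCTCctagtggtgcct
Ctsc, 150 bases before the start, chr7:88277924-88277953: tcactaactaaCTTCCTCaggccacctcgt
Ctsz, 250 bases before the start, chr2:174439040-174439289: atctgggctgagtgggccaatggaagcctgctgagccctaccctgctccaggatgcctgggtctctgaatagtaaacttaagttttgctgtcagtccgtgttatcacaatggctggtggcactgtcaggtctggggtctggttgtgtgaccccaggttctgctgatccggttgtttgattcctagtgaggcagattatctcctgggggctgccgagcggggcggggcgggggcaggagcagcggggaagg
Neither Ctsa nor Ctsd, the genes with TCACGTGA, passed the test between the states (log2 fold changes 0.03 and -0.16). A match is a description of sequence and not a site.

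Other genes of the pathway were taken from 4 lists, whose counts stand beside the 13.6% of all genes that changed between the states (8.41% upward, 5.18% downward). Of 15 other cathepsins, 11 had a read and 3 could be tested, of which 0 rose and 1 fell (median -0.46, against -0.01 over all genes, of which 5.18% fell). Ctsf, a cysteine cathepsin, fell from 229.6 ± 39.4 CPM (SD, n = 8) to 141 ± 49.7 (SD, n = 16; -0.70 ± 0.173 SE, edgeR adjusted p = 0.00731). It did not pass with phagocytosis numbers 3 and 4 alone or without the controls over 20% satellite, and its log2 fold change was -1.02 to -0.45 over the 36 alternatives. Ctse, an aspartic cathepsin, was tested on 16 reads in 8 control and 56 in 16 phagocytosis libraries and did not pass (edgeR adjusted p = 0.318). Ctsk, the cathepsin of bone-resorbing cells, had 3 and 14 reads, and Ctsg, of neutrophil granules, had 0. Of 21 other cystatins and cathepsin inhibitors 12 had a read and 5 could be tested, of which 1 rose and 0 fell (median 0.77), where 8.41% of all genes rose. Cst7, which encodes cystatin F, an inhibitor that acts inside lysosomes, rose from 24.7 ± 9.55 to 49.5 ± 23.4 CPM (1.01 ± 0.290 SE, edgeR adjusted p = 0.0211). It did not pass under 5 of 36 alternatives (log2 fold change 0.63 to 1.31 over all 36), among them each fit without female WT control 2, male WT control 2 or male NL4-/- control 2. The stefin A genes Stfa1, Stfa2, Stfa2l1 and Stfa3 had 0 reads.

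Among 20 genes for partners, activators and substrates of cathepsins 19 were tested, of which 4 rose and 0 fell (median 0.02), where 8.41% of all genes rose. Lamp1, a glycoprotein of the lysosome membrane, rose from 253 ± 40.1 to 487 ± 193 CPM (0.93 ± 0.217 SE, edgeR adjusted p = 0.00663). Scpep1, a serine carboxypeptidase related to Ctsa, rose by 0.49 ± 0.116 (edgeR adjusted p = 0.00488) and the peptidase gene Dpp7 by 0.51 ± 0.128 (0.00809). Without the controls over 20% satellite Lamp1, Scpep1 and Dpp7 did not pass. Dpp7 did not pass with phagocytosis numbers 1 and 2 alone or with the numbers as a block either. Over the 36 alternatives the log2 fold change was 0.70 to 1.08 for Lamp1, 0.45 to 0.57 for Scpep1 and 0.35 to 0.64 for Dpp7. Lgmn, the protease that cuts several cathepsin precursors, had -0.13 ± 0.116 (edgeR adjusted p = 0.497), and Cd74, the invariant chain that Ctss trims, had 1.54 ± 0.504 (0.0536).

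Of 25 genes for sorting and transcriptional control of lysosomal enzymes 23 were tested, of which 3 rose and 1 fell (median 0.00), so that 4 of 23 changed where 13.6% of all genes did. Both mannose 6-phosphate receptors rose. Igf2r, the large receptor, went from 2.75 ± 3.42 CPM (SD, n = 8; 12 reads in all, in 5 of 8 libraries) to 25.7 ± 10.7 (SD, n = 16; 283 reads, in 16 of 16 libraries; edgeR adjusted p = 3.16e-07), and the lowest phagocytosis library (10.2 CPM) lay above the highest control (8.54 CPM). With so few control reads, Igf2r passed the filter on low counts only through its phagocytosis libraries. Its p and the separation of its states are therefore a description. M6pr, the small receptor, rose from 356 ± 43.0 to 475 ± 46.8 CPM (0.42 ± 0.0957 SE, edgeR adjusted p = 0.00388), and missed the threshold with numbers 3 and 4 alone (edgeR adjusted p = 0.0501). Sort1, or sortilin, which also carries lysosomal proteins, fell from 103 ± 26.0 to 60.3 ± 13.8 CPM (-0.75 ± 0.137 SE, edgeR adjusted p = 0.000445). Fnip2, a partner of folliculin, rose from 10.3 ± 3.11 to 24.4 ± 9.34 CPM (1.23 ± 0.279 SE, edgeR adjusted p = 0.00322). Its log2 fold change was 1.01 to 1.41 over 35 alternatives, and it missed the threshold in 1 of them, without the controls over 20% satellite (edgeR adjusted p = 0.0965). Igf2r and Sort1 passed under all 36 alternatives. Of the transcription factors that drive lysosomal genes Tfeb had -0.09 ± 0.218 (edgeR adjusted p = 0.842), Tfe3 -0.28 ± 0.128 (0.155) and Mitf -0.15 ± 0.221 (0.710). The 4 lists were drawn up with earlier results of these data known, so their counts are a description.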

How the data were processed

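RNA was measured by Smart-Seq2 in 24 libraries of 1000 sorted microglia. For each library the authors deposited estimates for 116945 transcripts, namely expected counts, TPM and effective lengths in bases, in columns of the kind salmon writes, per the file headers. Which quantifier made them, in which version and with which read filters is not stated in the labels used here. The deposited expected counts are not normalised. The TPM deposited by the authors correct for transcript length and have 1 common sum per library. The deposited effective lengths served only to scale counts in an alternative.

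Transcripts were matched to GENCODE vM21 (GRCm38): 116023 matched and 922, with 0.274 to 0.379% of the reads, were left out. Expected counts were summed per gene and rounded. Genes were tested with edgeR 4.0.16 in R 4.3.3 (TMM, quasi-likelihood F test, 8 group means, no covariate), keeping genes that pass edgeR's expression filter at a count of 10, with Benjamini-Hochberg adjustment over 9803 genes and a threshold of 0.05. The common dispersion was 0.0812, a coefficient of variation of 0.285. Fold changes carry a prior count of 0.125. All tests are two-sided. TPM were summed per gene for levels and ratios, and correlations use log2 CPM with a prior count of 1. The alternatives, DESeq2 1.42.0 among them, are in the closing section.

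All 10 genes were described in the comparisons; of the 4 further lists each gene past the threshold between the states was named, up to 8 a list, and the others named there were chosen after their values were seen. For likeness the 3 genes with the highest correlation are named. Of the genes these rules select, 2 are not reported here. The genes, lists and the division by library number were chosen with earlier results of these data known. Libraries of a group differed by more than sampling noise, so none was counted as a duplicate. Depth ran from 421107 to 1013797 reads, and amplified reads without molecular identifiers are not independent molecules. Protein sequences were not analysed here.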

Additional observations from a re-analysis of the deposited data

Results flagged for a closer look

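Each of the 40 sets of 4 phagocytosis libraries (10 genes in 4 groups) was examined for a library far from the others, and 1 was found. Ctsz in male WT phagocytosis replicate 2 was at 3154 CPM, below replicates 1, 3 and 4 at 3875, 3992 and 4005 CPM, a gap that passed Dixon's criterion for 4 values. Chance marks about 1 in 20 such sets.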

How the results depend on the processing

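Each result was recomputed under 12 alternative settings and with each of the 24 libraries left out. Between the states Ctsb and Cstb passed in all 36, with adjusted p up to 6.52e-05 and 0.000197, and Ctsz in all but the fit without the controls over 20% satellite. The count of all genes was 782 with phagocytosis numbers 3 and 4 alone, 410 without the controls over 20% satellite, and 781 to 1508 with a library left out, the lowest without female WT control 2. Of its 1332 genes 824 were higher; scaling by library total alone gave 981 of 1329, with the median of all genes at 0.06. Of the 10 genes 5 were called with a minimum count of 30 and 7 with numbers 1 and 2 alone, where 23% and 18.8% of all genes were. With a library left out 3 to 4 of the 10 were called. Ctsa, which did not pass, changed sign with length-scaled counts (-0.0108), the replicate block (-0.132), numbers 1 and 2 alone (-0.0955) and without the controls over 20% satellite (-0.0634). With numbers 3 and 4 alone Ctsd (0.0874) and Cst3 (0.0169) changed sign. The cause was not tested.

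Equal replicate numbers did not pair the libraries: of 36 same-numbered pairs within a state, 3 had a correlation of deviations over 0.1. The range was -0.11 to 0.16, and controls carry numbers 1 and 2 only. The check counts a pair of numbers 1 and 2 as unlike. It therefore cannot show whether phagocytosis numbers 1 and 2 share a difference from the higher numbers. With the replicate block 7 of the 10 genes were called, where 16.8% of all genes were (1646): Ctsb, Cstb and Ctsz upward as before, and Ctsd (-0.48, edgeR adjusted p = 0.0139), Cst3 (-0.47, 0.0102), Ctsh (-0.42, 0.0102) and Ctss (-0.44, 0.00920) downward. Because controls carry numbers 1 and 2 only, the state difference in this fit rests mainly on phagocytosis numbers 1 and 2. The downward calls are therefore not separate from those with numbers 1 and 2 alone (-0.46, -0.44, -0.38 and -0.40 in the same order).

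Within groups, female WT had 2 of the 10 genes called under DESeq2, without a filter, with a minimum count of 30, without satellite genes, with the replicate block and with numbers 1 and 2 alone. The count of all genes called in female WT was 57 (0.581%) in the main fit and 33 to 293 over the 12 settings. It was at most 315, 99 and 167 in female NL4-/-, male WT and male NL4-/-. The counts of the 10 genes by setting are therefore a description. Female NL4-/- had 0 with numbers 3 and 4 alone, and male WT had 1 with library totals, length-scaled counts or numbers 1 and 2 alone. Male NL4-/- had 1 with DESeq2's size factors in edgeR. Without the controls over 20% satellite these last 3 groups had 0. With a library left out each of the 4 groups ranged from 0 to 2, and 1 call was lost most often for Ctsb in male WT (13 of 24) and Cstb in male NL4-/- (10 of 24). No genotype, sex or interaction fit called any of the 10 genes under any of these alternatives. Cstb rests on 11 to 44 reads per control library, which limits its fold change.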
